A study of Homo sapiens and Mus musculus with 27 samples.

Results

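The 10 genes described here are known from sublines of the human breast cancer line MDA-MB-231 that were selected in mice for growth in the lung, and they were followed across all groups of the series. They are PTGS2, EREG, ANGPTL4, LTBP1, SPARC, ID1, ID3, VCAM1, IL13RA2 and KYNU. Rows of the 3 deposited count tables whose gene name equalled a member, ignoring letter case, were taken. All 10 were found in each table, among 59453 human gene names (LM2 and LifeAct) and 55367 mouse gene names (4T1). RNA was sequenced from LM2 cells, a lung-metastatic human subline of MDA-MB-231, and from 4T1 cells, a mouse breast cancer line. In each line 3 libraries overexpressed MKL1 (labelled WT MKL1 OE), 3 overexpressed caMKL1, labelled as such without further description of the construct, and 3 were controls, all made from polyA RNA. In a separate experiment, rRNA-depleted RNA was sequenced from LM2 cells negative, low or high in LifeAct, a peptide tag that binds filamentous actin, with 3 libraries each. The parental MDA-MB-231 line was not analysed here, so a level in LM2 says nothing of how the subline differs from its parent.

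MKL1 (gene symbol MRTFA) is a coactivator of serum response factor (SRF) that is held in the cytoplasm by actin monomers and moves to the nucleus when actin polymerises. The 10 genes act at several steps of lung colonisation in the MDA-MB-231 literature. PTGS2, the inducible cyclooxygenase that makes prostaglandin precursors, and EREG (epiregulin), a ligand of the EGF receptor family, act together with matrix metalloproteinases on blood vessels of the tumour and lung. ANGPTL4 is a secreted, TGF-beta-inducible protein that loosens contacts between endothelial cells, and LTBP1 tethers latent TGF-beta to the matrix. ID1 and ID3 are inhibitors of basic helix-loop-helix factors linked to renewed growth in the lung, SPARC is a matrix glycoprotein, and VCAM1 is an adhesion receptor that binds leukocytes carrying integrin alpha 4. IL13RA2 is a decoy receptor for interleukin 13, and KYNU is kynureninase, an enzyme of tryptophan breakdown.

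The labels were checked on the gene named in them. MRTFA had 164, 180.6 and 140.2 CPM in LM2 MKL1 libraries, 175, 257 and 223 CPM in caMKL1 libraries, and 10.6, 10.3 and 11.5 CPM in control libraries. Here CPM is the count scaled to the library size after TMM, edgeR's normalisation. In 4T1 cells Mrtfa lay between 2087 and 2199 CPM with MKL1 and between 596 and 679 CPM with caMKL1. Control libraries had 36.995 to 41.6 CPM, so in both lines every overexpression library stood above every control library. The level checks overexpression only, and in LM2 the MKL1 and caMKL1 libraries overlapped. In LifeAct cells, where no construct of this gene is named, MRTFA ran from 25.7 to 31.1 CPM in negative, 30.7 to 37.005 CPM in low and 38.5 to 43.4 CPM in high libraries. Depth ran from 15581289 to 23678322 counts per library in LifeAct, from 21896459 to 29370432 in 4T1 and from 22147429 to 32147377 in LM2. In LM2, replicate 1 of MKL1 and of caMKL1 stood somewhat apart from the others of its group. By the root mean square difference of log2 CPM over all tested genes, MKL1 replicate 1 lay 0.521 and 0.474 from replicates 2 and 3, which lay 0.416 from each other. For caMKL1 replicate 1 these distances were 0.473 and 0.501, against 0.42 between the others, and LM2 control libraries lay 0.364 to 0.39 apart. The mitochondrial share of counts was 7.76% in caMKL1 replicate 1, against 13.4% and 13.6% in replicates 2 and 3, while MKL1 libraries had 6.18%, 9.87% and 7.11% in replicate order. LM2 results are therefore also given without both where a call differs. Of 5 epithelial markers, 4 reached 5 CPM in LM2 cells, where CDH1 stayed under 1 CPM, and all 5 did in 4T1 cells. They summed to 466 to 570 CPM with MKL1, 1607 to 1976 CPM with caMKL1 and 351 to 369 CPM in control libraries of LM2. In 4T1 the sums were 3306 to 3376, 4455 to 4652 and 2133 to 2192 CPM in the same order. LifeAct libraries had 794 to 878 CPM in negative, 815 to 819 CPM in low and 679 to 763 CPM in high cells. Mesenchymal markers (VIM, FN1, CDH2, ZEB1) summed to 3983 to 4611 CPM with MKL1, 13007 to 14099 CPM with caMKL1 and 2004 to 2058 CPM in control libraries of LM2. In 4T1 they summed to 8038 to 8267 CPM with MKL1, 9719.7 to 9761 CPM with caMKL1 and 4967 to 5230.2 CPM in control, and in LifeAct cells to 4753 to 4914 CPM in negative, 2792 to 2830.1 CPM in low and 2410.4 to 2479 CPM in high libraries. Of the 4 mesenchymal markers 3 were higher and 1 lower with caMKL1 in LM2, and Cdh2 had 0 counts in all 4T1 libraries. The part of either marker set in the members' results was not tested.

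The bases just upstream of the start sites are shown first, because 6 of the 9 members with a promoter window in the RefSeq table (GRCh38.p14) held a TATA box there. The table gives 250 bases before and 50 bases after each start. It held no window for IL13RA2 and 3 for LTBP1, of which the first is shown. Each line below holds the 100 bases before the start, 5′ to 3′ on the gene's strand, with motif matches in capitals.
PTGS2: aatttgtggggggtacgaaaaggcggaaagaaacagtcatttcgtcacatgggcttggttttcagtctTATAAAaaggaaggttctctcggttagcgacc
EREG: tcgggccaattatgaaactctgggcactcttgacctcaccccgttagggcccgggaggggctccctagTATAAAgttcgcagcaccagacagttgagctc
ANGPTL4: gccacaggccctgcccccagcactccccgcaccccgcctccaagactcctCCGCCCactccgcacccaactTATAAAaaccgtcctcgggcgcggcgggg
VCAM1: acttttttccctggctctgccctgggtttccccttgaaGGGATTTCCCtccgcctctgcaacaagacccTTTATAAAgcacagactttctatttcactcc
ID1: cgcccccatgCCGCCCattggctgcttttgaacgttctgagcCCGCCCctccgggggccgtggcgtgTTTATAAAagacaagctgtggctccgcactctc
KYNU: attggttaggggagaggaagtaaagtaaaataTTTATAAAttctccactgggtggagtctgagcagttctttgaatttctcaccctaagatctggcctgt
LTBP1: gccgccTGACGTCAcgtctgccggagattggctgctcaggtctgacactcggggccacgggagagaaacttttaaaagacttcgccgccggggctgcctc

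These stretches lie at chr1:186680424-186680523 (PTGS2, minus strand), chr4:74365045-74365144 (EREG, plus), chr19:8364055-8364154 (ANGPTL4, plus), chr1:100719642-100719741 (VCAM1, plus), chr20:31605189-31605288 (ID1, plus), chr2:142877564-142877663 (KYNU, plus) and chr2:32946853-32946952 (LTBP1, plus). The TATA box, searched as TATAAA, was found in 11.5% of all 35116 windows in the table. In PTGS2, EREG, ANGPTL4, VCAM1 and ID1 a match lay between bases -33 and -24 from the start, and in KYNU the nearest lay at -68 to -61. The letters CCGCCC in ANGPTL4 and ID1 are GC boxes (GGGCGG on the other strand), which 45% of all windows held. In VCAM1 the longer run in capitals is an NF-kB consensus match, which 5.91% of windows held, and in LTBP1 the run is a cyclic AMP response element (TGACGTCA), held by 1.85%. The SRF consensus known as the CArG box was in 1.29% of all windows and in none of the 11 member windows. An AP-1 site (TGAGTCA or TGACTCA, 4.95% of windows) and the BMP-responsive SMAD box GGCGCC (19.2%) were also in none of these windows. A TEAD site (CATTCC, 14%) was found in EREG, SPARC and ID1. Both strands were searched, so TTTATAAA holds overlapping TATA matches on the 2 strands, and a GC box can share bases with a SMAD box. A match describes letters in these windows only. The RefSeq starts differ from the gene starts of the files' own annotation for PTGS2, ANGPTL4, ID1, SPARC and KYNU.

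**Figure D1:**
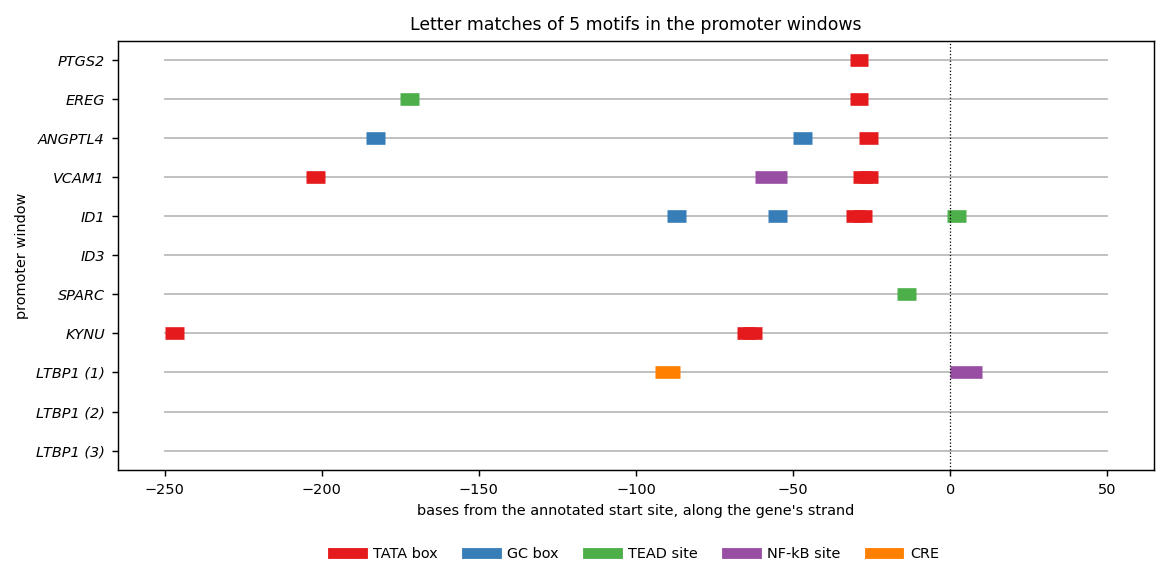
Positions of motif letter matches (coloured blocks) in the 11 promoter windows of 9 members, along the gene's strand in bases from the annotated start site (dotted line). TATA boxes lie just upstream of the start in PTGS2, EREG, ANGPTL4, VCAM1 and ID1, and no match of the motifs searched was found for ID3 or in the other LTBP1 windows.

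The members did not move as 1 group. Calls were made with edgeR's quasi-likelihood test at an adjusted p of 0.05 over all genes that passed its filter on low counts. In LM2, MKL1 libraries had 5 of 9 tested members higher and 0 lower than control libraries, where 12% of all genes were called, 7.25% higher and 4.74% lower. With caMKL1, 6 of 9 were higher and 0 lower than control, where 64.9% of all genes were called, 31.9% higher and 33% lower. The median log2 ratio of the tested members was 0.68 for MKL1 and 1.06 for caMKL1, against 0.01 and -0.05 over all genes. Leaving out control replicate 2 or 3 left 3 members called with MKL1, where 1243 of 19671 and 1106 of 19637 genes were called. Without both replicates 1, 7 members were higher with MKL1, where 2870 of 19075 genes were called. With caMKL1, 7 were higher and 1 lower in that fit, where 13056 of 19075 genes were called. Scaling to library totals instead of TMM shifted the median of all genes for caMKL1 to -0.46 and left 3 members higher and 1 lower. Of all 18893 genes, 4137 were then called higher and 9271 lower.

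In the other experiments 1 member each passed the filter only through the group where it was highest, Il13ra2 in 4T1 (caMKL1) and VCAM1 in LifeAct (high). These are given as values with no test and left out of the counts that follow. In 4T1, MKL1 libraries had 3 of 7 members higher and 1 lower than control, where 34.3% of all genes were called, 19.3% higher and 15% lower. All 7 differed with caMKL1, 4 higher and 3 lower, where 72% of all genes were called, 36.2% higher and 35.8% lower. The median log2 ratio of these members was -0.01 with MKL1 and 0.13 with caMKL1, against -0.00 and -0.02 over all genes. LifeAct-low cells had 2 of 8 members higher and 4 lower than negative cells, with 49.6% of all genes called, 26% higher and 23.6% lower. In LifeAct-high cells 4 were higher and 3 lower than in negative cells, with 71.1% of all genes called, 36% higher and 35.2% lower. The members' medians were -0.26 in low and 0.31 in high cells, against -0.01 and -0.03 over all genes. With caMKL1 and in LifeAct-high cells most genes were called, so a call there does not set a member apart. Not passing the filter were VCAM1 in LM2, Ereg and Kynu in 4T1 and IL13RA2 in LifeAct.

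**Figure D2:**
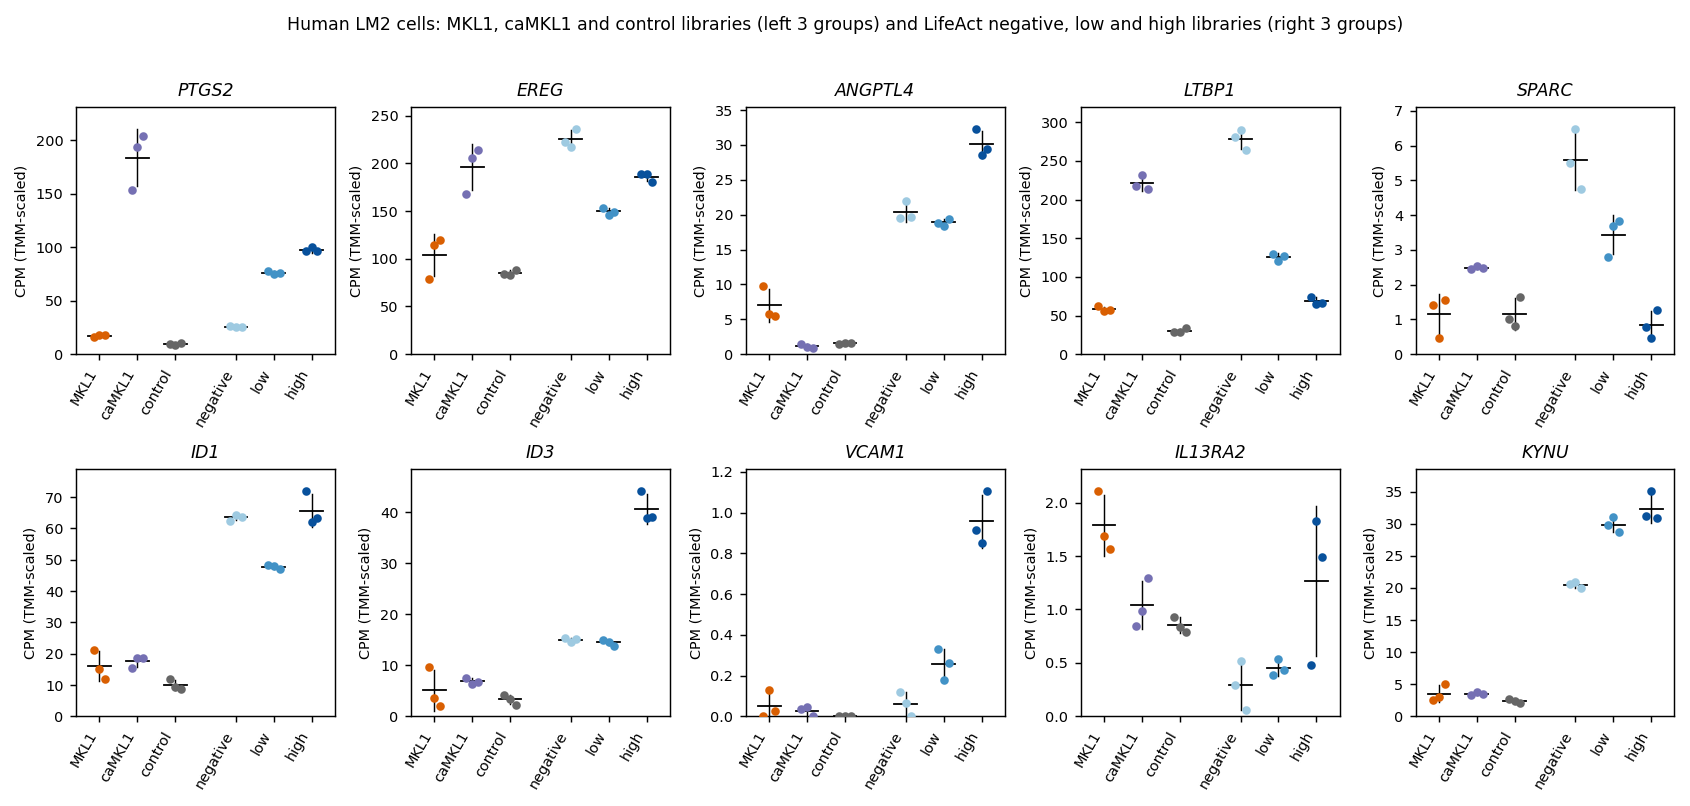
CPM (TMM-scaled, linear axes from 0) of the 10 members in each human library, with points for libraries, a horizontal line for the mean and a vertical line for the SD of 3 libraries. PTGS2 reached 204 CPM in an LM2 caMKL1 library, and LTBP1 was highest in LM2 caMKL1 and in LifeAct-negative cells. The left and right triplets were scaled separately and differ in RNA selection.

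Levels per exon length (RPKM) placed the members far apart. In LM2 control libraries EREG was highest at 14.9 ± 0.50 RPKM (SD, n = 3, as for all errors here), followed by ID1 at 8.14 ± 1.30 and LTBP1 at 4.10 ± 0.38 RPKM. ID3 at 2.21 ± 0.62 and PTGS2 at 1.75 ± 0.18 RPKM overlapped between libraries. ANGPTL4, IL13RA2, SPARC and KYNU lay between 0.139 and 0.646 RPKM, and VCAM1 had 0 counts. KYNU was the lowest of these in RPKM, with an exon length of 17442 bases. In CPM it averaged 2.42, above ANGPTL4 at 1.60, SPARC at 1.16 and IL13RA2 at 0.854. In 4T1 control libraries the order was another one: Sparc led at 94.0 ± 1.48 RPKM, above Ptgs2 at 40.5 ± 2.43 and Ltbp1 at 37.6 ± 0.76 RPKM. Vcam1 (16.4 ± 0.56) and Id3 (14.9 ± 0.25) followed, and Ereg and Kynu had 0 counts. In LifeAct-negative cells ID1 led at 51.5 ± 0.79 RPKM, above EREG at 39.4 ± 1.69 and LTBP1 at 37.8 ± 1.76 RPKM, of which EREG and LTBP1 overlapped.

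PTGS2 rose in every comparison with a control or negative group. It had 15.8, 17.8 and 18.0004 CPM in LM2 MKL1 libraries, 154, 193 and 204 CPM in caMKL1 libraries, and 9.66, 8.58 and 10.6 CPM in control libraries. The 3 groups did not overlap, and the log2 ratio to control was 0.84 ± 0.12 (SE, as for all log2 ratios) with MKL1 (edgeR adjusted p = 0.000356) and 4.26 ± 0.13 with caMKL1 (adjusted p = 3.55e-13), a 19.1-fold difference. The caMKL1 libraries exceeded the MKL1 libraries by 3.42 ± 0.12 (adjusted p = 3.77e-12). Its antisense neighbour PACERR shares 219 bases, 3.99% of the PTGS2 exons, and reads there cannot be assigned to a strand. PACERR itself had 340 counts over the 9 LM2 libraries.

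Mouse Ptgs2 rose with both constructs. It had 310.3, 314 and 366 CPM in 4T1 MKL1 libraries, 778, 757 and 871 CPM in caMKL1 libraries, and 177, 181.3 and 198 CPM in control libraries. Again the groups stood clear of each other, with log2 ratios of 0.83 ± 0.05 for MKL1 (adjusted p = 1.42e-11) and 2.11 ± 0.05 for caMKL1 (adjusted p = 1.84e-20). In LifeAct cells PTGS2 had 26.0, 25.4 and 25.3 CPM in negative, 78.0, 75.1 and 75.5 CPM in low, and 96.1, 100.4 and 96.1 CPM in high libraries. Each step was called: low exceeded negative by 1.58 ± 0.06 (adjusted p = 3.74e-19) and high exceeded low by 0.35 ± 0.05 (adjusted p = 3.81e-07).

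EREG, the epiregulin gene, rose with caMKL1 in LM2 and was lower in both LifeAct groups than in negative cells. LM2 libraries had 79.2, 114 and 119 CPM with MKL1, 168, 205.7 and 214 CPM with caMKL1, and 84.6, 82.7 and 88.3 CPM in control. The MKL1 libraries overlapped the control libraries through replicate 1, and their log2 ratio of 0.29 ± 0.13 was not called (adjusted p = 0.176). Without both replicates 1 it was 0.46 and called (adjusted p = 7.74e-05). The caMKL1 libraries were above both other groups, by 1.20 ± 0.13 against control (adjusted p = 1e-06). LifeAct libraries had 223, 217 and 236 CPM in negative, 154, 146 and 149 CPM in low, and 189, 189 and 180.9 CPM in high cells. Low cells were lowest and high cells lay between, with log2 ratios to negative of -0.59 ± 0.04 in low (adjusted p = 2.17e-12) and -0.27 ± 0.04 in high cells (adjusted p = 1.53e-06). In 4T1, Ereg had 0 counts in all MKL1 libraries, 2, 1 and 4 counts in caMKL1 libraries, and 0 counts in all control libraries. With 7 counts over the caMKL1 group, against a floor of 3 counts set for a group, no fold is given and no test was made.

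For ANGPTL4 the 2 constructs parted in LM2. LM2 MKL1 libraries had 9.72, 5.80 and 5.46 CPM, caMKL1 libraries 1.46, 1.08 and 0.894 CPM, and control libraries 1.502, 1.67 and 1.62 CPM. The gene rose with MKL1 by 2.13 ± 0.25 (adjusted p = 3.09e-05), the largest log2 ratio of the tested members in that comparison. The caMKL1 libraries lay just under the control libraries, and the ratio was -0.46 ± 0.29 (95% interval -1.09 to 0.17, adjusted p = 0.182), and it was called lower without both replicates 1 (-0.68, adjusted p = 0.0262) or with library totals (-0.86, adjusted p = 0.0229). The caMKL1 libraries fell below the MKL1 libraries by 2.59 on the log2 scale (SE 0.26, adjusted p = 3.51e-07).

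In 4T1 cells Angptl4 had 7.70, 8.30 and 8.17 CPM with MKL1, 0.0890, 0.148 and 0.449 CPM with caMKL1, and 11.4, 9.86 and 8.47 CPM in control. The caMKL1 libraries held 2, 4 and 11 counts, against 298, 307 and 225 in control libraries, a log2 ratio of -5.40 ± 0.24 (adjusted p = 7.63e-16). The MKL1 libraries lay below the control libraries, but their ratio of -0.30 ± 0.12 was not called (adjusted p = 0.0678), while 5 of the alternatives called it. In LifeAct cells ANGPTL4 had 19.5, 22.0 and 19.7 CPM in negative, 18.9, 18.4 and 19.3 CPM in low, and 32.3, 28.5 and 29.5 CPM in high libraries. The high group stood well clear, 0.57 ± 0.08 above negative (adjusted p = 1.5e-07). The low libraries lay just under the negative ones and were not called (-0.11, 95% interval -0.27 to 0.06, adjusted p = 0.277).

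LTBP1 rose with both constructs in LM2 and fell with LifeAct. It had 61.7, 56.5 and 57.6 CPM in LM2 MKL1 libraries, 217, 232 and 214 CPM in caMKL1 libraries, and 28.9, 28.1 and 33.3 CPM in control libraries. The groups were well separated, at log2 ratios of 0.96 ± 0.09 for MKL1 (adjusted p = 4.19e-06) and 2.88 ± 0.10 for caMKL1 (adjusted p = 7.69e-13). LifeAct libraries had 280.3, 289 and 264 CPM in negative, 129.9, 120.1 and 127 CPM in low, and 74.5, 65.3 and 66.3 CPM in high cells. The levels were ordered from negative to high without overlap, and the log2 ratios to negative were -1.14 ± 0.05 in low (adjusted p = 2.22e-17) and -2.01 ± 0.05 in high cells (adjusted p = 2.05e-23). In 4T1, where the gene was abundant throughout, MKL1 libraries had 397, 396 and 407 CPM, caMKL1 libraries 464, 461 and 467 CPM, and control libraries 405, 393 and 408 CPM. MKL1 and control overlapped (log2 ratio -0.01, 95% interval -0.06 to 0.05, adjusted p = 0.864, but -0.07 and called with library totals, adjusted p = 0.0247), and caMKL1 was higher by 0.21 ± 0.03 (adjusted p = 2.3e-07), a call lost with library totals (0.02, adjusted p = 0.393).

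SPARC was scarce in the human cells and abundant in 4T1. Mouse Sparc had 462, 481 and 453 CPM with MKL1, 1015, 1033 and 1030.2 CPM with caMKL1, and 358.9, 359.3 and 349 CPM in control libraries. It rose with both constructs, by 0.39 ± 0.03 for MKL1 (adjusted p = 6.27e-11) and 1.53 ± 0.03 for caMKL1 (adjusted p = 1.43e-23). Fibroblast markers (COL1A1, COL1A2, DCN, LUM, PDGFRA, THY1) summed to 34.1 to 37.9 CPM with MKL1, 32.2 to 32.7 CPM with caMKL1 and 29.4 to 31.9 CPM in control, with Dcn, Lum, Col1a2 and Thy1 each under 1 CPM in all 3 groups. Lum was at 0 counts in all 9 libraries, and the part of such cells in the Sparc result was not tested. Bulk RNA cannot tell fewer cells of a type apart from less RNA per cell, and this holds for all results here.

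LM2 libraries had only 11 to 64 counts of SPARC. MKL1 libraries had 1.40, 0.476 and 1.56 CPM, caMKL1 libraries 2.46, 2.54 and 2.48 CPM, and control libraries 1.01, 0.797 and 1.66 CPM. MKL1 and control overlapped, with a log2 ratio of 0.03 ± 0.36, of which the sign changed between settings. The caMKL1 libraries were higher than all others, by 1.102 ± 0.34 against control (adjusted p = 0.00995), a call lost with library totals (adjusted p = 0.0963) and without control replicate 2 (adjusted p = 0.053). LifeAct cells went the other way: SPARC had 5.51, 6.47 and 4.77 CPM in negative, 2.79, 3.69 and 3.82 CPM in low, and 0.786, 0.457 and 1.27 CPM in high libraries. The 3 groups did not overlap, and the log2 ratios to negative were -0.69 ± 0.18 in low (adjusted p = 0.00211) and -2.70 ± 0.24 in high cells (adjusted p = 3.48e-11). The fibroblast marker sum was 6.37 to 7.88 CPM with MKL1, 16.04 to 17.1 CPM with caMKL1 and 7.06 to 9.32 CPM in control libraries of LM2, and 10.6 to 14.2 CPM in negative, 13.2 to 14.3 CPM in low and 16.3 to 16.8 CPM in high LifeAct libraries. PDGFRA, THY1 and DCN were under 1 CPM in each of these 6 groups. COL1A2 averaged 0.546 CPM with MKL1, 10.2 CPM with caMKL1 and 0.0271 CPM in control libraries of LM2, high where SPARC was high. Of the 3 fibroblast markers tested there, 1 was higher and 1 lower with caMKL1 than in control, at a median log2 ratio of -0.44. The part of such cells was not tested. The antisense gene CLMAT3 shares 191 bases with SPARC (4.12% of its exons) and had 21 counts in LM2 and 46 in LifeAct.

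**Figure D3:**
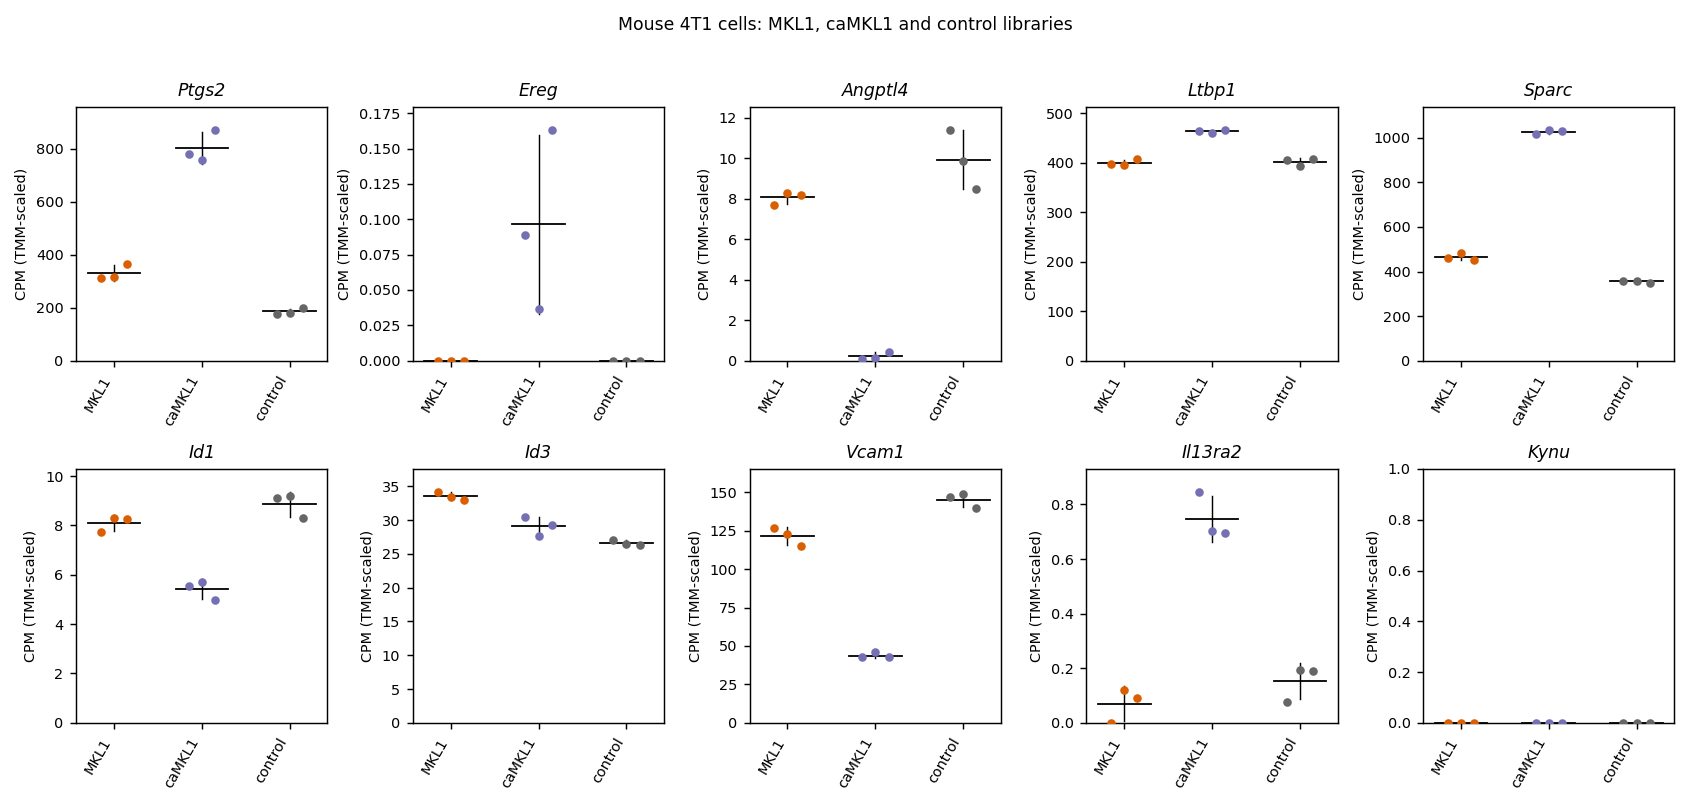
CPM (TMM-scaled, linear axes from 0) of the 10 members in each 4T1 library, with points for libraries, a horizontal line for the mean and a vertical line for the SD. Ptgs2 and Sparc were highest with caMKL1, Angptl4 and Vcam1 were lowest there, and Kynu had 0 counts in every library.

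ID1 changed by under 1 log2 unit in each comparison with a control or negative group, and its direction in the caMKL1 libraries was opposite in the 2 lines. LM2 MKL1 libraries had 21.3, 15.1 and 11.8 CPM, caMKL1 libraries 15.4, 18.6 and 18.6 CPM, and control libraries 11.9, 9.38 and 8.86 CPM. MKL1 replicate 3 lay just under control replicate 1, and the log2 ratio of 0.68 ± 0.19 (adjusted p = 0.029) was lost with library totals (adjusted p = 0.0564), without MKL1 replicate 1 (0.42, adjusted p = 0.122) and without control replicate 2 or 3 (adjusted p = 0.105 and 0.145). The caMKL1 libraries did not overlap control and were higher by 0.81 ± 0.19 (adjusted p = 0.00149), which was lost with library totals (0.39, adjusted p = 0.0805). Between the constructs the difference of 0.13 was not called (95% interval -0.26 to 0.52, adjusted p = 0.558), but it was 0.49 and called without both replicates 1 (adjusted p = 0.0058).

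In 4T1 the Id1 gene had 7.74, 8.30 and 8.27 CPM with MKL1, 5.56, 5.72 and 4.98 CPM with caMKL1, and 9.10, 9.18 and 8.29 CPM in control. MKL1 overlapped control by a small margin and was not called (-0.13, adjusted p = 0.329). The caMKL1 libraries were the lowest, 0.71 below control on the log2 scale (log2 ratio -0.71 ± 0.10, adjusted p = 1.11e-06). LifeAct libraries had 62.5, 64.4 and 63.7 CPM in negative, 48.3, 47.95 and 47.0 CPM in low, and 71.8, 62.0 and 63.3 CPM in high cells. Only the low group stood apart, at -0.41 ± 0.06 against negative (adjusted p = 8.29e-07), while high against negative was 0.05 (95% interval -0.06 to 0.17, adjusted p = 0.401).

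ID3, the paralogue of ID1, rose most in LifeAct-high cells. It had 15.3, 14.6 and 15.2 CPM in negative, 14.9, 14.6 and 13.8 CPM in low, and 44.0, 38.8 and 39.1 CPM in high libraries. Negative and low overlapped (log2 ratio -0.06, 95% interval -0.24 to 0.12, adjusted p = 0.587), and high was above negative by 1.44 ± 0.08 (adjusted p = 5.64e-16). In LM2, MKL1 libraries had 9.62, 3.55 and 2.08 CPM, caMKL1 libraries 7.58, 6.30 and 6.70 CPM, and control libraries 4.14, 3.49 and 2.30 CPM. MKL1 replicate 1 alone was high: the ratio to control was 0.62 ± 0.40 with it (adjusted p = 0.344) and -0.26 without it (adjusted p = 0.619). The caMKL1 libraries were above every control library (1.06 ± 0.40, adjusted p = 0.0287), a call lost under DESeq2 (adjusted p = 0.114), with library totals (adjusted p = 0.172), and without caMKL1 replicate 1 (adjusted p = 0.0664), control replicate 2 (0.0547) or control replicate 3 (0.124). Against MKL1, caMKL1 was not called (0.44 ± 0.38, adjusted p = 0.328), but with the replicate block, which pairs these libraries, it was 0.60 and called (adjusted p = 0.0401). Leaving out MKL1 replicate 1 gave 1.32 (adjusted p = 0.000256), and leaving out both replicates 1 gave 1.26 (adjusted p = 0.000223).

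Mouse Id3 had 34.2, 33.4 and 33.02 CPM with MKL1, 30.4, 27.6 and 29.2 CPM with caMKL1, and 27.1, 26.5 and 26.2 CPM in control. The 3 groups did not overlap, and MKL1 was higher than control by 0.33 ± 0.05 (adjusted p = 3.14e-05). The difference of 0.13 for caMKL1 was small and just past the threshold (adjusted p = 0.0448). It was lost under DESeq2 (adjusted p = 0.0764), without the low-count filter (adjusted p = 0.255) and in 5 of 6 fits without 1 library (adjusted p up to 0.159, without caMKL1 replicate 1). With library totals it had the opposite sign (-0.06, adjusted p = 0.364).

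VCAM1 was near 0 in LM2 and expressed in 4T1, where it fell. Vcam1 had 126.7, 123 and 115 CPM in 4T1 MKL1 libraries, 42.8, 45.8 and 42.7 CPM in caMKL1 libraries, and 147, 149 and 139.5 CPM in control libraries. The groups did not overlap, with log2 ratios of -0.26 ± 0.04 for MKL1 (adjusted p = 1.38e-05) and -1.73 ± 0.04 for caMKL1 (adjusted p = 9.73e-21). VCAM1 is best known from endothelium and leukocyte contacts, so markers of such cells are given beside it. Endothelial markers (PECAM1, CDH5, KDR, VWF, TEK) summed to 1.33 to 1.65 CPM with MKL1, 7.49 to 7.75 CPM with caMKL1 and 0.707 to 0.803 CPM in control, with Pecam1, Cdh5, Kdr and Tek under 1 CPM in all groups. Cd68, a macrophage gene, averaged 21.02 CPM with MKL1, 60.7 CPM with caMKL1 and 6.25 CPM in control, whereas Ptprc, Itgam and Cd3e stayed under 1 CPM in all groups. The endothelial sum and Cd68 were higher with caMKL1, where Vcam1 was lower, and their part in the result was not tested.

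LM2 libraries held 0, 3 and 1 counts of VCAM1 with MKL1, 1, 1 and 0 with caMKL1, and 0 in each control library, at or near a floor of 3 counts, so no fold is given. In LifeAct cells VCAM1 had 2, 1 and 0 counts in negative, 6, 3 and 6 in low, and 21, 13 and 20 in high libraries, or up to 1.104 CPM. The high libraries were above all others. The ratio of summed counts, scaled to library size, was 15.6 for high to negative and 4.19 for low to negative. Both rest on 3 counts over the negative group and are values with no test. In the same libraries endothelial markers summed to 96.9 to 100.3 CPM in negative, 35.5 to 37.5 CPM in low and 13.96 to 15.9 CPM in high cells. The sums ran in the opposite order, but in each group only 1 of the 5 markers reached 5 CPM. CDH5 and TEK were under 1 CPM throughout. Of the 3 markers tested, 1 was higher and 2 lower in high than in negative cells. The part of such cells was not tested.

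IL13RA2 was low in every group. LM2 MKL1 libraries had 2.10, 1.69 and 1.56 CPM, caMKL1 libraries 0.846, 0.988 and 1.29 CPM, and control libraries 0.934, 0.835 and 0.792 CPM. MKL1 stood above both other groups, by 1.06 ± 0.26 against control (adjusted p = 0.0133), a call lost without MKL1 replicate 1 (adjusted p = 0.0548) or control replicate 2 or 3 (0.0576 and 0.0665). The caMKL1 libraries overlapped control (0.27 ± 0.28, adjusted p = 0.407, and -0.14 with library totals) and were lower than MKL1 by 0.79 (log2 ratio -0.79 ± 0.25, adjusted p = 0.0131), which was lost without replicate 1 of MKL1 (adjusted p = 0.053), of caMKL1 (0.0587) or of both (0.162). In 4T1 the counts were 0, 3 and 2 with MKL1, 19, 19 and 17 with caMKL1, and 2, 6 and 5 in control libraries. The caMKL1 libraries were above all others, at up to 0.845 CPM. In LifeAct cells IL13RA2 had 5, 8 and 1 counts in negative, 7, 9 and 10 in low, and 11, 28 and 27 in high libraries, and it did not pass the filter.

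KYNU rose in both LifeAct groups. It had 20.6, 20.8 and 19.9 CPM in negative, 29.8, 31.1 and 28.7 CPM in low, and 31.1, 35.01 and 30.9 CPM in high libraries. Both groups were clear of negative, by 0.54 ± 0.07 in low (adjusted p = 4.1e-07) and 0.66 ± 0.07 in high cells (adjusted p = 4.8e-09), and they overlapped each other (0.11 ± 0.07, adjusted p = 0.172). In LM2, MKL1 libraries had 2.54, 3.07 and 4.98 CPM, caMKL1 libraries 3.35, 3.76 and 3.53 CPM, and control libraries 2.64, 2.47 and 2.15 CPM. Neither was called against control (MKL1 0.56 ± 0.23, adjusted p = 0.141, and caMKL1 0.55 ± 0.24, adjusted p = 0.0553). Both were called without both replicates 1 (0.77, adjusted p = 0.0165, and 0.60, adjusted p = 0.0223). The caMKL1 ratio was also called with DESeq2 size factors (adjusted p = 0.0364), without the filter (0.0487), with the replicate block (0.0366) and in the fit to these groups alone (0.0121). It stayed uncalled in 9 of 14 alternatives, with adjusted p up to 0.628. Kynu had 0 counts in all 9 4T1 libraries.

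**Figure D4:**
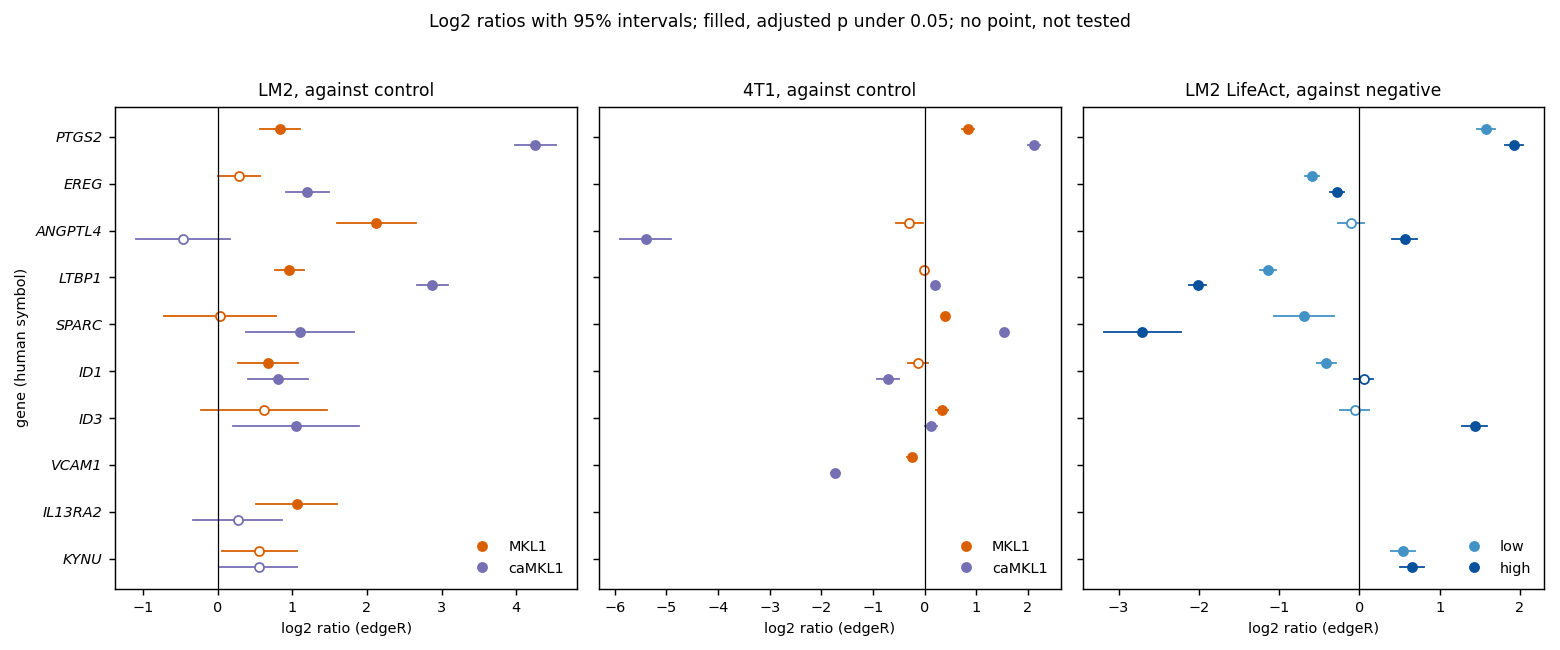
Log2 ratios of the members (points) with 95% intervals (lines) against control in LM2 and 4T1 and against LifeAct-negative cells. Filled points passed an adjusted p of 0.05. Members without a point did not pass the filter or are given as values only (Il13ra2 in 4T1 and VCAM1 in LifeAct). PTGS2 lies to the right of 0 in all 6 comparisons shown, from 0.83 to 4.26, while LTBP1 lies to the right for both LM2 constructs and to the left for both LifeAct groups.

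The constructs were also set against each other. In LM2, caMKL1 libraries had 4 of 9 tested members higher (PTGS2, LTBP1, EREG and SPARC) and 2 lower (ANGPTL4 and IL13RA2) than MKL1 libraries, where 64.5% of all genes were called, 32.6% higher and 31.9% lower. The LTBP1 difference was 1.92 ± 0.09 (adjusted p = 5.71e-11) and the EREG difference 0.91 ± 0.13 (adjusted p = 1.99e-05). SPARC differed by 1.07 ± 0.33 (adjusted p = 0.0107), a call lost with library totals (adjusted p = 0.0793). In 4T1, 3 of 7 were higher with caMKL1 (Ptgs2, Sparc and Ltbp1) and 4 lower (Angptl4, Vcam1, Id1 and Id3), where 66.6% of all genes were called, 33.8% higher and 32.8% lower. Mrtfa there lay between 596 and 679 CPM with caMKL1 and between 2087 and 2199 CPM with MKL1. The part of this level in the differences was not tested. In LifeAct cells, high libraries had 5 of 8 higher and 2 lower than low libraries, where 50.3% of all genes were called, 26.6% higher and 23.7% lower. SPARC and LTBP1 were the 2 lower ones.

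Whether the 2 lines changed by different amounts was tested for the members that passed the filter in both, 6 without IL13RA2, as the log2 ratio in 4T1 minus that in LM2. For MKL1, 3 of 6 differed, where 25.6% of 10360 matched genes did, and for caMKL1 5 of 6 differed, where 70.6% did. PTGS2 was higher with MKL1 by 0.83 in 4T1 and 0.82 in LM2, and the difference of 0.01 had a 95% interval of -0.35 to 0.36 (adjusted p = 0.982), its sign changing between settings. With caMKL1 its rise was smaller in 4T1, 2.104 against 4.32 in LM2 (difference -2.22 ± 0.16, adjusted p = 1.43e-10). ANGPTL4 gave the largest gaps: -2.41 ± 0.30 for MKL1 (adjusted p = 1.11e-05) and -5.02 ± 0.50 for caMKL1 (adjusted p = 2.4e-08).

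For LTBP1 the ratio was lower in 4T1 than in LM2, with a difference of -0.96 ± 0.09 for MKL1 (adjusted p = 3.94e-07) and -2.74 ± 0.09 for caMKL1 (adjusted p = 2.19e-15). ID1 differed by -0.79 ± 0.23 for MKL1 (adjusted p = 0.0154) and -1.59 ± 0.23 for caMKL1 (adjusted p = 5.41e-06). IL13RA2, given as values only, had a difference of -2.11 for MKL1 and of 1.89 for caMKL1. For ID3 with caMKL1 the difference was -1.004 ± 0.42 (adjusted p = 0.0396), a call lost under DESeq2 (0.0723), with library totals (0.159) and in 10 of 12 fits without 1 library (up to 0.122). SPARC did not pass for either construct, with 0.34 (95% interval -0.28 to 0.95) and 0.36 (95% interval -0.23 to 0.94).

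**Figure D5:**
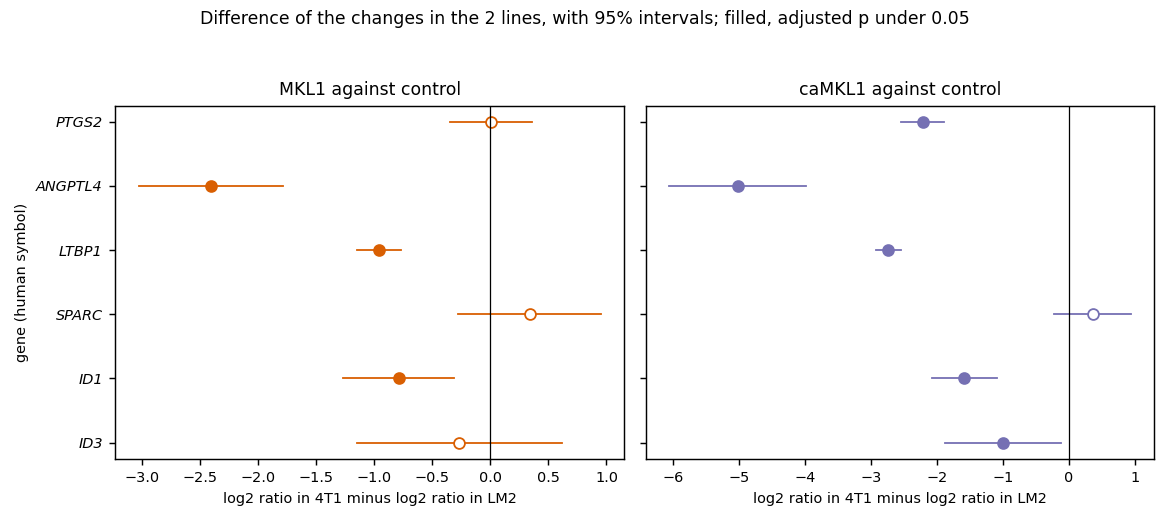
Difference between the lines (log2 ratio to control in 4T1 minus that in LM2) for the 6 members tested in both, with 95% intervals, for MKL1 (left) and caMKL1 (right). Filled points passed an adjusted p of 0.05. ANGPTL4 lies farthest from 0 for both constructs, at -2.41 and -5.02, and PTGS2 lies at 0.01 for MKL1.

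A further 9 lung metastasis genes of the same MDA-231 literature were set beside the members. TNC (tenascin C) stood out in both lines: it averaged 365 CPM with MKL1, 2046 CPM with caMKL1 and 124 CPM in control libraries of LM2, with log2 ratios of 1.56 (adjusted p = 3.22e-08) and 4.05 (adjusted p = 8.09e-14). Mouse Tnc averaged 117 CPM with MKL1, 529 CPM with caMKL1 and 63.2 CPM in control. In LM2, 4 of the 8 tested genes were higher and 1 lower with MKL1, and 2 were higher and 3 lower with caMKL1, at medians of 0.70 and -0.27. In 4T1, 4 of 7 were higher and 1 lower with MKL1, and 4 higher and 3 lower with caMKL1. Of all genes, 12% in LM2 and 34.3% in 4T1 were called with MKL1, and 64.9% and 72% with caMKL1. The share was 71.1% for LifeAct-high against negative cells. MMP1, a collagenase that acts with PTGS2 and EREG, had a log2 ratio of 1.21 with MKL1 (adjusted p = 0.0045) and of -0.42 with caMKL1 (adjusted p = 0.206). In LifeAct-high cells MMP1 was 2.39 above negative (adjusted p = 6.42e-24) and CXCL1, a chemokine, 2.62 above (adjusted p = 1.59e-21), and 4 of 8 were higher and 4 lower, TNC among the lower (-0.69, adjusted p = 1.19e-14). FSCN1, the actin-bundling protein fascin, was lower with caMKL1 in LM2 (-1.55, adjusted p = 3.06e-06), whereas mouse Fscn1 was higher (0.77, adjusted p = 8.16e-16).

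Genes that work with each member were also looked at. With caMKL1, 64.9% of all genes were called in LM2, 31.9% higher and 33% lower. In 4T1 with caMKL1 the shares were 72%, 36.2% and 35.8%. For LifeAct-high against negative cells they were 71.1%, 36% and 35.2%. Of the prostaglandin pathway, 3 of 11 tested genes were higher and 6 lower with caMKL1 in LM2 (median -0.58, against -0.05 over all genes), HPGD, which degrades prostaglandins, being higher by 2.34 (adjusted p = 7.09e-09) and the transporter ABCC4 lower (-1.23, adjusted p = 1.28e-08). The prostaglandin E2 receptor gene Ptger4 was higher with both constructs in 4T1 (1.63, adjusted p = 4.12e-11, and 2.39, adjusted p = 5.73e-16), and PTGER4 was 1.80 higher in LifeAct-high than in negative cells (adjusted p = 1.01e-15). Of 12 tested genes of this pathway in 4T1, 3 were higher and 2 lower with MKL1, where 34.3% of all genes were called. With caMKL1, 7 of the 12 were higher and 4 lower. In LifeAct-high cells 5 of 11 were higher and 5 lower. Of 10 EGF family ligands and receptors, 7 were higher and 3 lower with caMKL1 in LM2 (median 1.25), led by the receptor ERBB4 (6.71, adjusted p = 3.72e-13) and the ligand BTC (4.85, adjusted p = 1.13e-11). In 4T1, 3 of 9 were higher and 5 lower with caMKL1, among them the ligands Hbegf (-1.50, adjusted p = 2.12e-18) and Tgfa (-1.31, adjusted p = 2.39e-18).

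Among 8 tested angiopoietin-like genes and lipases, 5 were higher and 0 lower with caMKL1 in LM2 (median 1.30), where ANGPTL4 itself was not called: ANGPTL2 was higher by 4.39 (adjusted p = 2.1e-11), PDK4 by 4.74 (adjusted p = 3.16e-11) and lipoprotein lipase (LPL), which ANGPTL4 inhibits, by 5.25 (adjusted p = 1.1e-10). Of 12 genes of the LTBP family and latent TGF-beta, 8 were higher and 2 lower (median 0.84), including the integrin subunits ITGAV (2.28, adjusted p = 7.29e-12) and ITGB8 (3.12, adjusted p = 2.3e-11). In LifeAct-high cells 3 of these 12 were higher and 8 lower than in negative cells (median -0.41, against -0.03 over all genes), and LTBP4 (-1.27, adjusted p = 4.45e-19) and ITGB8 (-1.60, adjusted p = 6.78e-16) were among the lower. Of 15 ID partners and BMP response genes, 11 were higher and 4 lower with caMKL1 in LM2 (median 0.84). ID2 (5.46, adjusted p = 1.12e-11) and ID4 (3.30, adjusted p = 2.97e-11), the other ID genes, were among the higher, and ID2 was also 2.69 higher in LifeAct-high cells (adjusted p = 1.55e-11), where 4 of 16 genes of the list were higher and 9 lower (median -0.28).

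For VCAM1 the beta subunit of its receptor, ITGB1, was higher with caMKL1 in LM2 (1.57, adjusted p = 1.19e-08) and Itgb1 in 4T1 (0.59, adjusted p = 1.35e-16), with 3 of 5 tested genes of that list higher and 1 lower in LM2, and 1 of 4 higher and 3 lower in 4T1. The SPARC family had 3 of 3 tested genes higher with caMKL1 in 4T1, led by Fstl1 (3.78, adjusted p = 3.29e-14), and in LifeAct-high cells SPOCK1 was 2.62 higher (adjusted p = 8.34e-22), where SPARC fell. Of 5 tested genes of that family, 2 were higher and 1 lower in LifeAct-high than in negative cells. IL13RA1, the signalling receptor for interleukin 13, was higher with caMKL1 in LM2 (1.87, adjusted p = 6.34e-11), among 2 of 5 higher and 1 lower. Il13ra1 was lower in 4T1 (-0.95, adjusted p = 2.02e-16), among 1 of 6 higher and 4 lower. Of 8 tested kynurenine pathway genes 2 were higher and 3 lower with caMKL1 in LM2, and in LifeAct-high cells, where KYNU rose, 0 of 7 were higher and 4 lower. The shares called are to be read against the percentages of all genes called given above.

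The genes whose pattern over the 9 groups lay nearest to each of 6 members tested in all 3 tables were looked up among 7890 genes of at least 5 CPM, by the root mean square difference of group mean log2 CPM centred within each experiment. For PTGS2 they were ADAMTS1, TUFT1 and TENT5B at 0.32 to 0.36 log2 units, where PTGS2 itself varied by 1.25. ID1 was nearest to IER2, TMEM243 and BCL2L11 (0.12 to 0.13, against its own 0.28) and ID3 to TIPARP, MXD1 and IL6ST (0.14 to 0.17, against 0.46). LTBP1 lay nearest to NR4A2, ADAM19 and CYP39A1 (0.22 to 0.27, against 0.84) and SPARC to GPR153, KLC4 and PLEKHH2 (0.20 to 0.28, against 0.70). ANGPTL4 had no close match, with FOSL1, CCND1 and UBQLN2 at 0.57 to 0.62 against its own 1.16. These distances are a description over 9 group means.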

How the data were processed

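Whole-number counts per gene name were deposited for 27 libraries. Per the file headers the authors made them with featureCounts 2.0.1 on exons summed by gene name (Ensembl on GRCh38 for human, GRCm38 for mouse), with no strand option. No source used here gives the aligner's version. DESeq2 and the builds hg38 and mm10 are named in the submitters' processing notes. Per the labels, polyA RNA was used for LM2 and 4T1 and rRNA depletion for LifeAct. In the caMKL1 samples the genotype labels run caMKL1, caMKL2 and caMKL3 while titles and treatment give caMKL1, so they were taken as 3 replicates. The labels do not say that replicates came from separate cultures, so p-values measure only the spread between these samples, which may be technical.

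Counts were fitted per experiment (9 libraries, 1 mean per group) with edgeR 4.0.16 in R 4.3.3: filter at a minimum count of 10, TMM, quasi-likelihood F test, Benjamini-Hochberg over all tested genes (18893 in LM2, 16297 in 4T1, 21869 in LifeAct) at 0.05. Log2 ratios use a prior count of 0.125. The lines were compared in 1 fit of 10360 symbol-matched genes, TMM within line. The scripts were tested on simulated data. DESeq2 1.42.0, limma 3.58.1 and the settings of the closing section were alternatives. All 27 count columns were matched to samples. No pair of replicates was within sampling noise (chi-square per gene at least 1.39). Same-numbered LM2 MKL1 and caMKL1 libraries deviated together (correlations of 0.442, 0.338 and 0.11) and count as paired.

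The members, related gene lists and tests were chosen with earlier results of these data known. All 10 members are named; of each related list at most 3 genes with the smallest p are named per comparison, and the other lung metastasis genes without limit. Antisense genes overlap PTGS2, SPARC, KYNU, LTBP1, Ereg and Vcam1, and their reads cannot be told apart. Promoter sequences are from RefSeq. 1 marker list is not reported here.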

Additional observations from a re-analysis of the deposited data

Results flagged for a closer look

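The changes in the 2 lines differed in the combined fit (edgeR quasi-likelihood test of the difference, 4T1 minus LM2, adjusted p under 0.05 over 10360 genes) for the following members. With MKL1, the differences of the log2 ratios to control were -2.41 for ANGPTL4, -0.79 for ID1, -2.11 for IL13RA2 and -0.96 for LTBP1. With caMKL1 they were -2.22 for PTGS2, -5.02 for ANGPTL4, -1.59 for ID1, -1.004 for ID3, 1.89 for IL13RA2 and -2.74 for LTBP1. ANGPTL4 was up with MKL1 in LM2 (2.11 in this fit) and not called in 4T1 (-0.30), and with caMKL1 it was -5.41 in 4T1 and -0.39 in LM2. ID1 with caMKL1 was -0.72 in 4T1 and 0.87 in LM2. The ID3 difference lost its call under DESeq2, with library totals and in 10 of 12 fits that left out 1 library. IL13RA2 is left out of these members, and its differences were -2.11 with MKL1 (-2.10 with the replicate block) and 1.89 with caMKL1. Il13ra2 had 0 to 6 counts per library in 4T1 MKL1 and control cells and passed the filter only through caMKL1, so its differences are values and not evidence. The lines also differ in species and in the level of Mrtfa reached, and the part of either in these differences cannot be told apart.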

How the results depend on the processing

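Across DESeq2, limma voom, DESeq2 size factors, library totals, no filter, the replicate block, fits to only the 2 groups compared, fits without 1 library and, in LM2, without both replicates 1, 960 of 1038 recomputed log2 ratios of members kept direction and call, 33 lost the call, 24 gained it and 21 changed sign. For the difference between the lines 208 of 238 were kept, 19 lost and 11 changed sign. No voom or 2-group fit was made for that difference.

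Leaving out 1 library at a time, the genes called for LM2 MKL1 against control numbered 1106 to 2450 (2265 with all), lowest without control replicate 3, with 1266 and 1243 without control replicates 1 and 2, and the members called 3 to 5, being 3 without control replicate 2 or 3. Counts of members in this section include Il13ra2 in 4T1 and VCAM1 in LifeAct. All other counts of calls stayed within 1.5 times.

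Sign changes, none of which was called, were as follows. KYNU, LM2 caMKL1 against MKL1 (-0.01), was 0.002362 under DESeq2, 0.03544 under voom, 0.02364 with DESeq2 size factors, 0.01982 with the replicate block, and up to 0.33 without 1 library. SPARC, LM2 MKL1 against control (0.03), was -0.02673 under voom, -0.03101 with library totals, -0.08755 without both replicates 1, and -0.25 to 0.41 without 1 library. IL13RA2, LM2 caMKL1 against control, was -0.1354 with library totals. ID1, caMKL1 against MKL1, was -0.2112 with library totals and -0.06626 to 0.3845 without 1 library. ID3, LM2 MKL1 against control, was -0.2729 without both replicates 1 and -0.26 to 1.02 without 1 library. Id3, 4T1 caMKL1 against control, was -0.05662 with library totals. Without 1 library, Ltbp1 with 4T1 MKL1 ran from -0.02703 to 0.003252 and ID1 in LifeAct high against negative from -0.01728 to 0.1008. The PTGS2 difference between the lines with MKL1 was -0.009936 under DESeq2, -0.01801 with DESeq2 size factors, -0.005911 without the filter and -0.07721 to 0.08542 without 1 library. Without 1 library the SPARC difference ran from -0.0296 to 0.6371 (MKL1) and -0.009695 to 0.57 (caMKL1), and the ID3 difference with MKL1 from -0.68 to 0.61. The cause of these changes was not tested.

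With library totals the median of all genes moved to -0.46 (LM2 caMKL1 against control), -0.38 (caMKL1 against MKL1), -0.21 (4T1 caMKL1 against control), -0.13 (4T1 caMKL1 against MKL1) and -0.11 (LifeAct high against low), and the genes called higher and lower were 4137 and 9271 in place of 6030 and 6241 for LM2 caMKL1, 4425 and 8635 in place of 6150 and 6029 for caMKL1 against MKL1, and 918 and 1241 in place of 1369 and 896 for LM2 MKL1. In 4T1 they were 2324 and 3868 in place of 3144 and 2449 for MKL1, 4528 and 7580 in place of 5900 and 5841 for caMKL1, and 4534 and 6690 in place of 5505 and 5353 between the constructs; in LifeAct high against low they were 4655 and 6437 in place of 5828 and 5176. Without replicate 2 of LM2 MKL1 the split was 1650 and 571, without control replicate 3 it was 781 and 325, and without the filter 2092 and 808.

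Only same-numbered libraries of LM2 MKL1 and caMKL1 were taken as paired. Correlations of other same-numbered pairs reached 0.322 (LM2 control and MKL1, replicate 3) and 0.306 (4T1 control and MKL1, replicate 3). With the replicate block the members called were 5 for LM2 MKL1, 7 for LM2 caMKL1 and 7 between these constructs. For the same comparisons in 4T1 they were 5, 8 and 8. In LifeAct they were 7, 8 and 8 (low against negative, high against negative, high against low). Of all 18893 genes in LM2, 1856 were higher and 1402 lower for MKL1 with the block. For caMKL1 they were 6235 and 6596, and between the constructs 6364 and 6347. Of 16297 genes in 4T1 they were 3354 and 2742, 6023 and 5966, and 5627 and 5498 in that order. Of 21869 genes in LifeAct they were 5690 and 5161, 7866 and 7652, and 5840 and 5180. The block changed no call of a member between the LM2 constructs but that of ID3.

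Depth limits SPARC, IL13RA2 and VCAM1 in the human cells and Il13ra2 in 4T1, with under 100 counts in most libraries.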
